A study of Mus musculus with 2 samples.

Results

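Vascular endothelial growth factor (VEGF) signalling genes were described in total RNA of the mouse adrenal gland. The 10 genes were chosen by name and not by their values, though with earlier results of these data known. They were the ligand genes Vegfa, Vegfb, Vegfc and Pgf and the receptor genes Flt1, Kdr and Flt4. The others were the co-receptor genes Nrp1 and Nrp2 and the fenestration gene Plvap. All 10 were found among the 55536 annotated genes. The animals were male, 8 to 10 months old and labelled as the strain 5xFAD/CAST. Their descriptions write it as 5xFAD X Cast, the notation of a cross. The first name is that of a transgenic line in which amyloid builds up in the brain, the second that of an inbred strain from wild mice, and the labels used here give no transgene genotype beyond it. There was 1 such group with 2 libraries, biological replicates 1 and 2 by their labels. Each library has its own biosample entry and both share a donor entry, so the spread between them may be technical or between animals. A single group leaves no comparison to test, and no p-value was computed.

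VEGF-A is a secreted factor that makes endothelial cells divide, survive and leak, and it maintains the fenestrated capillaries of endocrine glands, through which steroid hormones and catecholamines reach the blood. It acts mainly through the receptor tyrosine kinase encoded by Kdr. The receptor encoded by Flt1 binds VEGF-A tightly but signals weakly, and its soluble form traps the ligand. Placental growth factor (Pgf) and VEGF-B bind only the Flt1 receptor among these kinases, while VEGF-C binds the Flt4 receptor of lymphatic and some fenestrated endothelium. Neuropilins, encoded by Nrp1 and Nrp2, hold certain VEGF forms beside these receptors, and Plvap builds the diaphragm that spans each fenestra.

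Replicate 1 had 29204658 counts in annotated genes and replicate 2 had 26322473. The labelled tissue was checked against its defining markers: all 9 adrenal cortex markers and all 8 chromaffin cell markers were detected, with detection set at 1 TPM or more in each library (TPM is a level scaled by transcript length and by the total of its library). All 15 endothelial markers were detected too, with summed levels of 291 and 298 TPM in replicates 1 and 2. Of 8 kidney markers 1 was detected, Aqp2 at 1.69 and 1.01 TPM. All 9 adipocyte markers were detected, and their summed level was 780 TPM in replicate 1 and 489 TPM in replicate 2, so the libraries were not alike in this RNA.

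Several of these genes make more than 1 protein by splicing, and the bases at which their transcripts part are shown. The levels of the forms depend on reads across these bases and on reads in sequence that only some of the forms hold. Each line gives the last 15 bases that the forms share, in lower case, and the first 15 bases that set the form apart, in capitals, 5′ to 3′ on the strand of the gene, from GENCODE M21 transcripts (mm10). In Vegfa, on the minus strand of chromosome 17, exon 5 (chr17:46024065-46024094) is joined to the last exon in Vegfa-201, which encodes the form of 120 residues that diffuses freely. It is joined to exon 7 (chr17:46020991-46021122) in Vegfa-202, which encodes the form of 164 residues. It is joined to exon 6 (chr17:46022277-46022348) in Vegfa-207, whose product of 188 residues binds the cell surface and matrix most firmly.
Vegfa-201: aacaaagccagaaaaATGTGACAAGCCAAG
Vegfa-202: aacaaagccagaaaaTCACTGTGAGCCTTG
Vegfa-207: aacaaagccagaaaaAAAATCAGTTCGAGG

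In Flt1, on the minus strand of chromosome 5, exon 13 (chr5:147639225-147639533) is spliced to exon 14 in Flt1-202, which encodes the membrane receptor of 1333 codons. In Flt1-203 it runs on into the intron, which ends the reading frame after 688 codons and gives the soluble receptor.
Flt1-202: aagttctcgttagagATTCGGAAGCGCCAC
Flt1-203: aagttctcgttagagGTGAGCACTGCGGCA

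In Vegfb, on the minus strand of chromosome 19, exon 6 begins 101 bases earlier in Vegfb-201 (chr19:6985361-6985596) than in Vegfb-202 (chr19:6985361-6985495). The resulting shift of the reading frame separates the 186-residue form, which is freely secreted, from the 167-residue form, which binds heparan sulphate.
Vegfb-201: tgtgaagccagacagGGTTGCCATACCCCA
Vegfb-202: tgtgaagccagacagCCCCAGGATCCTCTG

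In Nrp2, on the plus strand of chromosome 1, the same splice donor is joined to the exon of the a tail (chr1:62815333-62818695) in Nrp2-204 and to that of the b tail (chr1:62795709-62799314) in Nrp2-205. The tails carry different transmembrane and cytoplasmic parts of the co-receptor.
Nrp2-204: tatcagcttttgcagATGAATATGAAGGAG
Nrp2-205: tatcagcttttgcagGGGGCACCCTCCCGC

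A start codon and a retained intron of the Vegfa annotation are shown too. The start codon bears on the residue lengths given for the forms, and the retained intron on the levels. Capitals mark the start codon in the first pair and the bases after exon 3 in the second. The coding region of Vegfa-202 is annotated from a CTG codon, 178 codons before the ATG that starts Vegfa-201 (chr17:46031861-46031890 against chr17:46031327-46031356 for the first 30 coding bases). Vegfa-209, an entry annotated as retained intron, runs 151 bases past the end of exon 3 into the intron (chr17:46025196-46025543), where Vegfa-202 is spliced to exon 4.
Vegfa-202 start: CTGacggacagacagacagacaccgccccc
Vegfa-201 start: ATGaactttctgctctcttgggtgcactgg
Vegfa-202 at exon 3: aacatcaccatgcagATCATGCGGATCAAA
Vegfa-209: aacatcaccatgcagGTGGGCACCTGCGGC

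The first question was at what level each gene was expressed. Of the 10 genes, 9 were detected, while 56.2% of the 22028 protein-coding genes and 25.5% of all annotated genes were. In bulk tissue, fewer cells of a type and less RNA per cell cannot be told apart, so the levels below are those of the whole gland. Values are means ± SD over the 2 libraries (n = 2).

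Among the ligands, Vegfa (ENSMUSG00000023951.17, chr17:46016993-46032369) had 245 TPM in replicate 1 and 253 TPM in replicate 2. The libraries were close, and at 249 ± 5.19 TPM it took rank 144 of the 22028 protein-coding genes, in their upper 0.654%. Vegfb (ENSMUSG00000024962.13, chr19:6982473-6987651) had 32.4 and 31.8 TPM in replicates 1 and 2. Vegfa was 7.76 ± 0.254 times as high as Vegfb in gene TPM, far beyond the spread of either gene. In protein-coding transcripts alone, treated below, Vegfa was 3.34 ± 0.295 times as high as Vegfb.

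Pgf (ENSMUSG00000004791.7, chr12:85166635-85177790) had 1.69 and 1.49 TPM, resting on 68 and 48 counts. In protein-coding transcripts alone Pgf had 1.54 TPM in replicate 1 and 0.99 TPM in replicate 2, which in replicate 2 is below the detection limit. Vegfc (ENSMUSG00000031520.6, chr8:54077606-54187096) had 0.65 TPM in replicate 1 and 1.09 TPM in replicate 2, and was the gene not detected. Its counts ran the other way, with 44 counts in replicate 1 and 32 in replicate 2, whose exact 95% Poisson intervals of 32.0 to 59.1 and 21.9 to 45.2 overlapped and cover counting error only. The TPM of replicate 2 held a short noncoding entry, Vegfc-202 of 501 bases, which was assigned 6.91 counts there and none in replicate 1 and which made up 61.7% of the TPM of the gene in replicate 2. In protein-coding transcripts alone, Vegfc had 0.65 and 0.42 TPM, all of it from Vegfc-201, while the second quantifier gave 46.1% of its TPM in replicate 2 to the coding entry Vegfc-203. Both ligands were thus near the detection limit, and no difference of Vegfc between the libraries could be seen at this depth.

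Vegfd, which like Vegfc encodes a ligand of the Flt4 receptor and is not among the 10 genes, had 17.7 TPM in replicate 1 and 13.95 TPM in replicate 2. It stood above Vegfc and Pgf in both libraries. Vegfa held 87.6% and 88.0% of the summed TPM of Vegfa, Vegfb, Vegfc and Pgf, and 82.4% and 83.9% with Vegfd added to the sum. Prokineticin genes had few or no counts. Prok1, which encodes endocrine gland-derived VEGF, had 7 and 4 counts, and its receptor gene Prokr1 13 and 14 counts. Prok2 and Prokr2 had 0 counts in both libraries, where the floor is 3 counts per library. A further set of estimates, the second quantifier described below, gave Prokr2 0.136 and 0.208 TPM, under the detection limit.

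Among the receptors, Kdr (ENSMUSG00000062960.10, chr5:75932827-75978458) had 40.5 and 43.1 TPM in replicates 1 and 2. Flt1 (ENSMUSG00000029648.13, chr5:147561604-147726011) had 31.2 and 36.1 TPM, below Kdr in both libraries, with a ratio of Flt1 to Kdr of 0.772 and 0.837. Flt4 (ENSMUSG00000020357.3, chr11:49609263-49652739) had 9.56 and 10.05 TPM. Kdr thus held 49.0 ± 1.05% of the summed receptor TPM, Flt1 39.4 ± 1.41% and Flt4 11.5 ± 0.359%, differences larger than the spread between the libraries. The 4 ligands together had 3.45 times the TPM of the 3 receptors in replicate 1 and 3.22 times in replicate 2.

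Among the co-receptors, Nrp1 (ENSMUSG00000025810.9, chr8:128358604-128503363), which favours the 164-residue form of VEGF-A, had 34.8 TPM in replicate 1 and 30.7 TPM in replicate 2. Nrp2 (ENSMUSG00000025969.15, chr1:62703285-62818695), the partner of the Flt4 receptor on lymphatic endothelium, had 16.6 and 14.9 TPM. Nrp1 was 2.08 ± 0.0273 times as high as Nrp2, with no overlap between the genes. Both were somewhat higher in replicate 1, and Nrp1 had the wider spread, 32.8 ± 2.91 TPM.

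Plvap (ENSMUSG00000034845.6, chr8:71497765-71511752), the gene of the fenestral diaphragm, had 82.7 TPM in replicate 1 and 82.5 TPM in replicate 2. It was second to Vegfa, at rank 614 and in the upper 2.79% of protein-coding genes, and the libraries hardly differed. Against Pecam1, a gene of all endothelium, which had 24.0 and 24.1 TPM, Plvap was 3.43 ± 0.0108 times as high, and against Kdr 1.98 ± 0.0921 times. The second quantifier, a set of estimates made directly from the reads, gave 70.6 and 67.9 TPM for Plvap and 2.90 for the mean ratio to Pecam1. The 3′ end of Plvap overlaps Gtpbp3 on the opposite strand, at 10.4 and 10.7 TPM, and whether the counting used strand is not given in the sources used here.

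**Figure D1:**
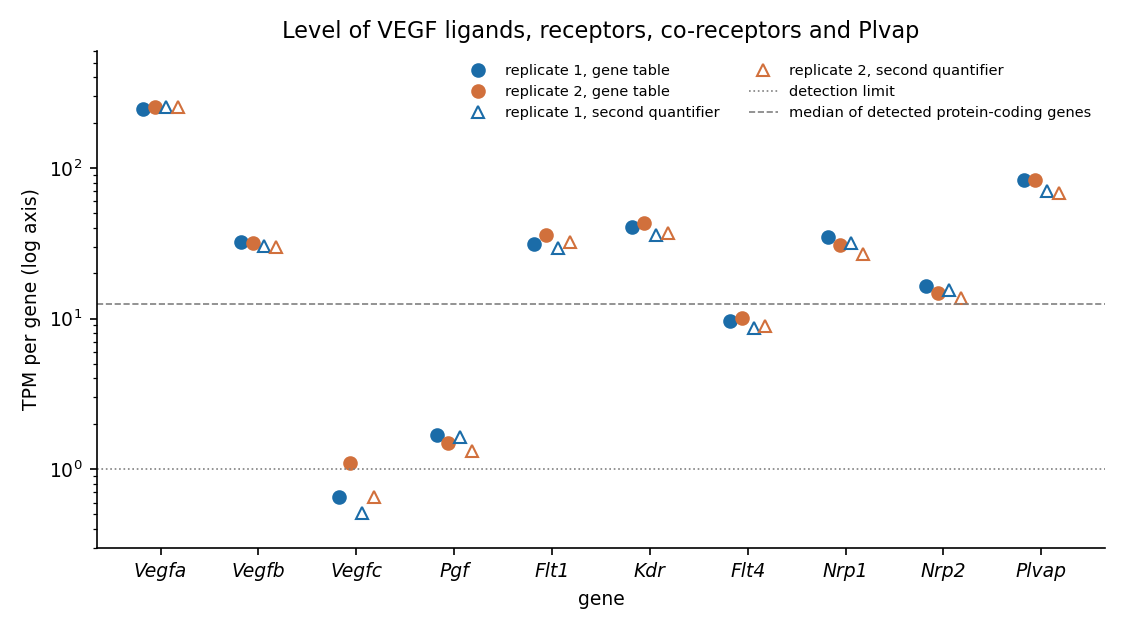
TPM per gene (log axis) of the 10 genes in replicate 1 (blue) and replicate 2 (orange), from the gene table (filled circles) and summed over transcripts of the second quantifier (open triangles). Vegfa stands at 245 and 253 TPM and Plvap at 82.7 and 82.5 TPM, well above the median of detected protein-coding genes (dashed, 12.4 TPM), while Pgf and Vegfc lie at or near the 1 TPM limit (dotted).

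Ordered by gene TPM, the genes ran Vegfa, Plvap, Kdr, Flt1, Nrp1, Vegfb, Nrp2, Flt4, Pgf and Vegfc. The ranges of the libraries overlapped for Flt1 and Nrp1 and for Nrp1 and Vegfb, so these neighbours did not differ beyond their spread. The other neighbours in the order did not overlap. The second quantifier gave overlaps at the same neighbours, and 0 of the 9 genes compared differed by more than 1.5-fold between the quantifiers, against 13.3% of the 15872 genes compared in all. The median over the 10 genes was 31.5 ± 0.375 TPM, beside 12.4 TPM over the 12371 detected protein-coding genes.

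The second question was which transcripts carried these levels. Vegfa stood apart here: its protein-coding transcripts had 98.9 TPM in replicate 1 and 109 TPM in replicate 2, or 40.3% and 43.3% of its gene TPM. The same transcripts held 79.7% and 81.3% of its counts. The difference between the shares comes with transcript length, since TPM divides counts by length and the noncoding entries are short. On average 58.2% of Vegfa TPM lay outside protein-coding transcripts, where the median detected protein-coding gene had 14.7% and 7.52% of such genes had more than Vegfa. At least 50% of the TPM lay outside in both libraries for 1 of the 9 detected genes, Vegfa, against 9.72% of the 12371 detected protein-coding genes.

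Counted over protein-coding transcripts alone, Vegfa was still the highest of the 10 genes, at 104 ± 7.41 TPM, but its lead over Plvap shrank to 1.26 ± 0.0914 times, against 3.01 ± 0.0669 times by gene TPM. Its share of the TPM of the 4 ligands was then 75.9 ± 1.91%, against 87.8 ± 0.289% by gene TPM. The ligands then had 1.88 and 1.86 times the TPM of the receptors. Lower in the order Vegfb, at 31.6 and 30.8 TPM, then stood above Nrp1, at 30.2 and 24.3 TPM, and above Flt1, at 25.1 and 27.7 TPM, in both libraries, and the ranges of Nrp1 and Flt1 overlapped. This restriction was chosen after the levels had been seen.

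**Figure D2:**
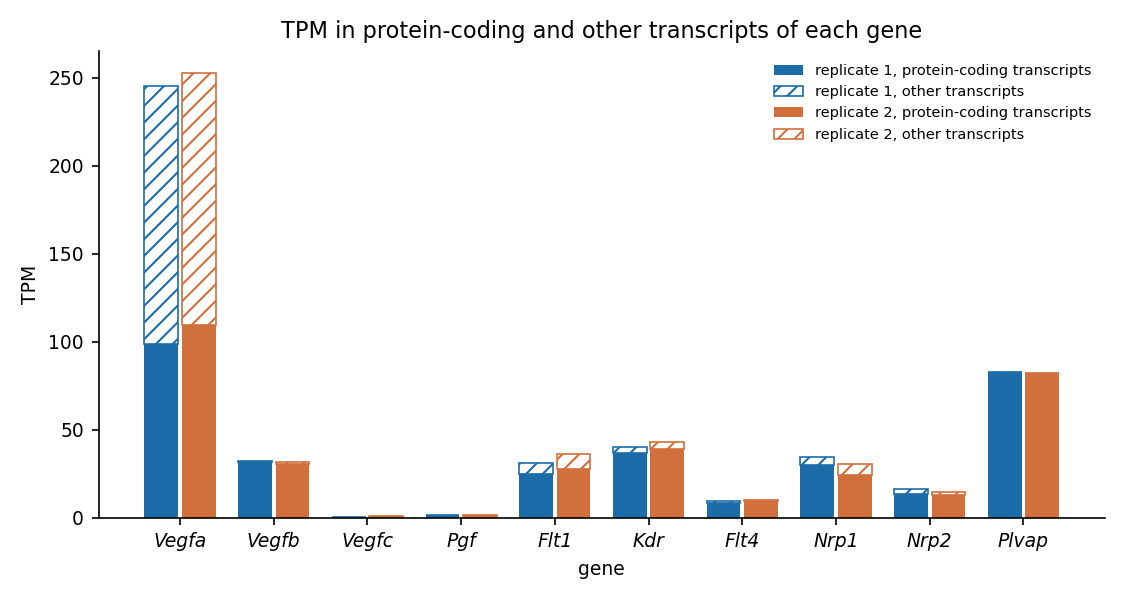
TPM of each gene in replicate 1 (blue) and replicate 2 (orange), split into protein-coding transcripts (solid) and all other annotated transcripts (hatched). The hatched part is larger than the solid part for Vegfa, where coding transcripts hold 98.9 and 109 TPM, and for none of the other 8 detected genes.

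Of 13 annotated Vegfa transcripts, 5 held at least 5% of its TPM in either transcript table as a mean over the libraries. Vegfa-202, the 164-residue form, led the coding transcripts with 76.7 TPM in replicate 1 and 81.3 TPM in replicate 2. Vegfa-201, the 120-residue form, had 13.2 and 15.03 TPM, and Vegfa-207, the 188-residue form, 9.05 and 13.1 TPM. Of the TPM in protein-coding transcripts, 75.9 ± 2.26% was of the 164-residue type, 13.5 ± 0.272% of the 120-residue type and 10.6 ± 1.99% of the 188-residue type. The lead of the 164-residue type held in both tables, while the order of the others did not. The second quantifier gave Vegfa-201 only 0.0150 and 4.86 TPM, and put the 120-residue type at 2.23% and 9.37% of coding TPM, below the 188-residue type at 14.2% and 14.5%.

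The remaining Vegfa TPM was mostly in Vegfa-209 and Vegfa-210, short entries annotated as retained intron. Vegfa-209, of 463 bases, had 72.9 and 73.1 TPM from 758 and 679 counts. The second quantifier put it above Vegfa-202, at 81.6 and 75.9 TPM against 76.4 and 75.5 TPM. Exon 3 with the intron stretch shown above makes up 348 bases of Vegfa-209, so this entry holds only part of the sequence before exon 3. Vegfa-210, of 852 bases, had 62.2 and 62.6 TPM from 1339 and 1205 counts. It begins with 344 bases of the intron before exon 4 and then joins exon 5 to the last exon as Vegfa-201 does, so reads over that junction can be given to either entry. When such entries were classed by their splicing too, the 120-residue type had 30.7 ± 0.0118% of Vegfa TPM, beside 32.0 ± 1.09% for the 164-residue type and 32.1 ± 1.496% without exon 5. By counts these shares were not alike: 21.1 ± 0.0843% for the 120-residue type, 66.1 ± 0.192% for the 164-residue type and 7.39 ± 0.583% without exon 5.

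**Figure D3:**
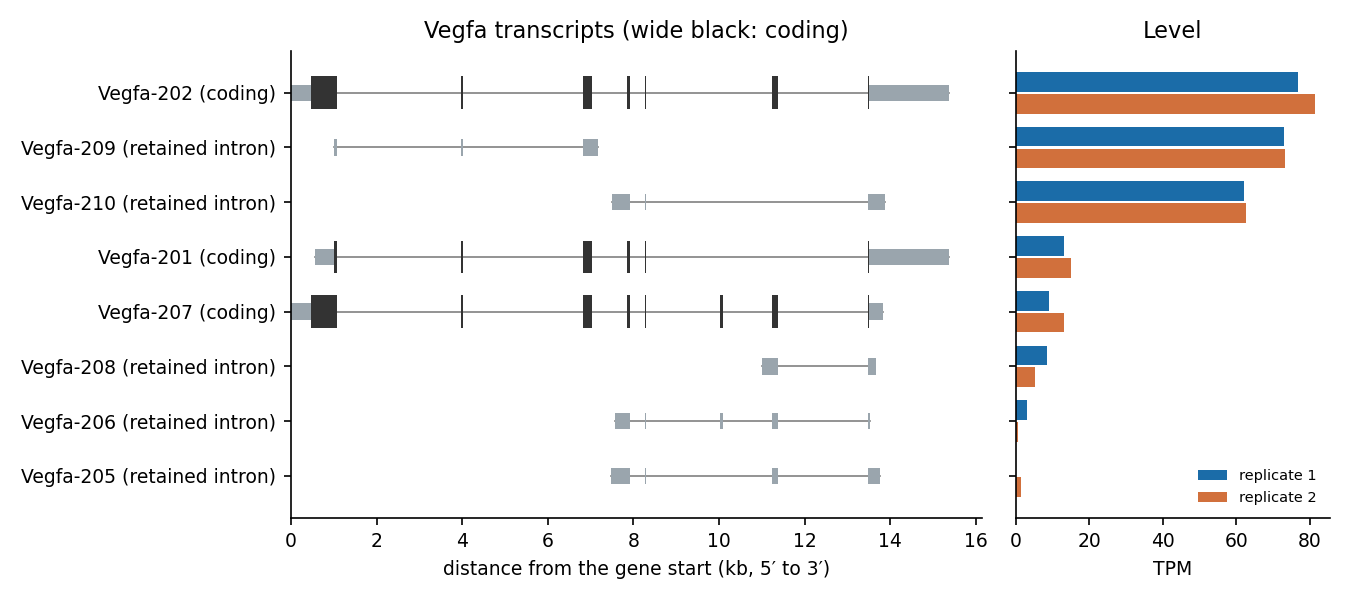
Left, exon models of the 8 Vegfa transcripts with TPM above 0 in either library, by distance from the gene start in kb (wide black, coding; narrow grey, other exon sequence). Right, their TPM in replicate 1 (blue) and replicate 2 (orange). Vegfa-202 leads at 76.7 and 81.3 TPM, followed by the retained-intron entries Vegfa-209 and Vegfa-210. In the second quantifier, which is not drawn, Vegfa-209 stands above Vegfa-202 in both libraries.

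Vegfb was split between its forms, and the leading form differed between the libraries. The 186-residue form, Vegfb-201, had 16.8 TPM in replicate 1 and 12.6 TPM in replicate 2. The 167-residue form, Vegfb-202, had 14.8 and 18.2 TPM. Their ratio was therefore 1.13 in replicate 1 and 0.693 in replicate 2, and the second quantifier gave 0.944 and 0.741. The posterior SD of each transcript count deposited by the authors was 33.3 reads in replicate 1, on 567 and 448 reads, so no order of the forms can be given.

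Flt1 had a membrane form at 17.3 TPM in replicate 1 and 16.97 TPM in replicate 2, from Flt1-202. The soluble form, Flt1-203, had 7.86 and 10.75 TPM. The membrane form led in both libraries, and the soluble form made up 31.3% and 38.8% of the TPM in protein-coding transcripts. The second quantifier gave 31.2% and 38.5%. The TPM ratio of Flt1-203 to Flt1-202 was 0.455 in replicate 1 and 0.634 in replicate 2, a gap with no further replicate to judge it by. Exon 13 has 4375 bases in Flt1-203 and 309 in Flt1-202, so most of Flt1-203 is sequence that Flt1-202 splices out. Unspliced RNA within total RNA can also give reads there, and its part in the Flt1-203 level was not tested. A noncoding entry, Flt1-201, held 15.9% and 17.4% of Flt1 TPM. In protein-coding transcripts, Flt1 as a whole was 0.696 ± 0.0208 times as high as Kdr.

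Nrp2 transcripts with the a tail had 8.52 TPM in replicate 1 and 8.88 TPM in replicate 2. Those with the b tail had 4.96 and 4.27 TPM. The a tail therefore led in both libraries, with 63.2% and 67.5% of the coding TPM, and with 60.4% and 66.3% in the second quantifier. The retained-intron entry Nrp2-207 held 18.6% of Nrp2 TPM in replicate 1 and 11.7% in replicate 2. The b-tailed Nrp2-201 held 0.24% in replicate 1 and 0 in replicate 2, against 9.40% and 4.59% in the second quantifier. Among single coding transcripts the b-tailed Nrp2-205 led in replicate 1, at 4.92 TPM, and the a-tailed Nrp2-204 in replicate 2, at 5.46 TPM. The a tail is shared by Nrp2-202, Nrp2-203, Nrp2-204 and Nrp2-206, which differ by short inserts, and their counts had posterior SDs of up to 135 reads in replicate 1.

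**Figure D4:**
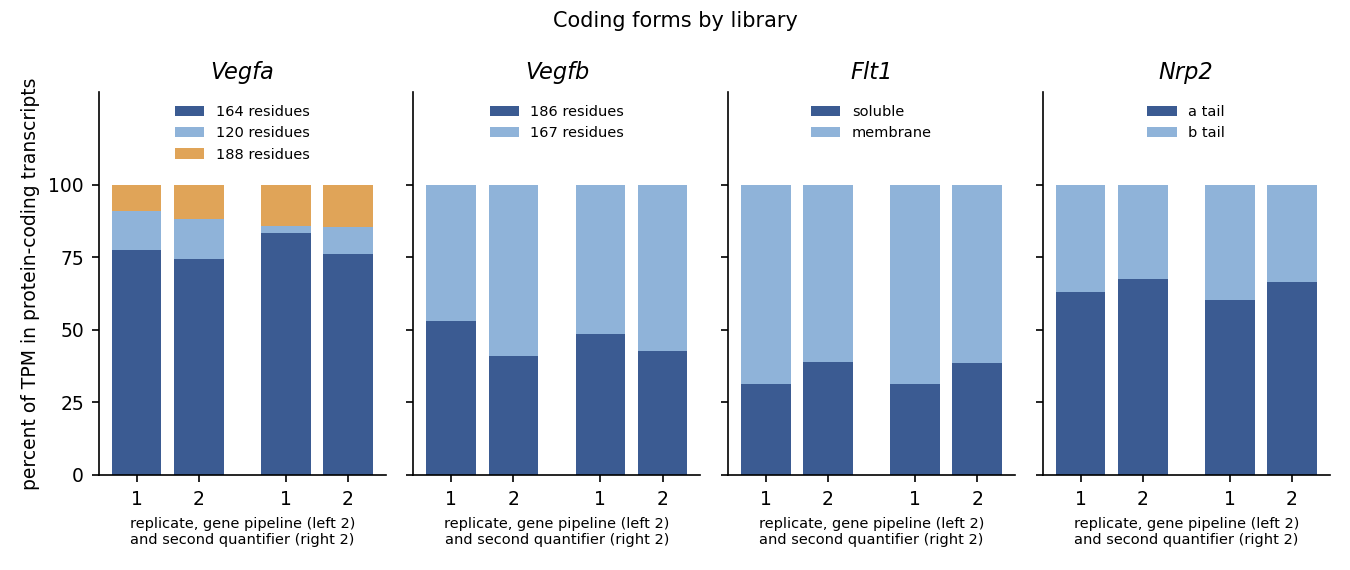
Percent of the TPM in protein-coding transcripts held by each form of Vegfa, Vegfb, Flt1 and Nrp2, in replicates 1 and 2 by the gene pipeline (left pair of bars) and by the second quantifier (right pair). The 164-residue type of Vegfa, the membrane form of Flt1 and the a tail of Nrp2 hold the most in all 4 bars, while for Vegfb the leading form differs between bars.

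Kdr, Flt4, Nrp1 and Pgf each had a leading coding transcript. Kdr-201 held 91.1% and 90.4% of Kdr TPM, and the retained-intron entry Kdr-203 4.39% and 4.78%. Flt4-201 held 91.0% and 92.6% of Flt4 TPM, and the noncoding entry Flt4-202 8.99% and 7.31%. Nrp1-201 held 86.8% in replicate 1 and 78.9% in replicate 2, and a retained-intron entry, Nrp1-203, 6.63% and 12.4%. Pgf-201 held 91.1% and 66.4%, on 65.4 and 37.6 counts, and 44.5% and 51.6% in the second quantifier. The retained-intron entry Pgf-202 held 0 in replicate 1 and 14.1% in replicate 2, and another, Pgf-203, 8.99% and 19.3%. The coding entry Pgf-204 was at 0 in both libraries and held 25.95% and 13.4% in the second quantifier. Plvap has 1 annotated transcript, the coding Plvap-201. The share of the leading transcript differed by at least 10 percentage points between the libraries for Vegfb, Vegfc and Pgf, or 3 of the 9 genes with several transcripts, against 29.7% of 13033 such genes.

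The third question was how far the libraries differed, measured as the log2 ratio of scaled counts, replicate 1 over replicate 2, with its counting error. None of the 10 genes passed 1.5-fold, while 6.71% of the 16383 genes whose mean count reached 20 did. The median absolute log2 ratio was 0.09 for the 10 genes and 0.12 for all genes. The ratio was highest for Pgf, at 0.36 ± 0.27, and Vegfc, at 0.31 ± 0.34, whose counting errors were as wide as the ratios or nearly so. Nrp1 followed at 0.22 ± 0.04 and Nrp2 at 0.11 ± 0.04, higher in replicate 1 under every scaling tried.

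Flt1 was at -0.12 ± 0.03 and Vegfa at -0.08 ± 0.02, lower in replicate 1, but scaling by spike-in RNA, which raised the median of all genes by 0.10, turned Vegfa to 0.02 and left Flt1 at -0.03. Kdr, at -0.07 ± 0.03, and Flt4, at -0.06 ± 0.05, each turned to 0.03 under it. Plvap was at 0.02 ± 0.03 and Vegfb at 0.07 ± 0.07. By the ratio of deposited TPM, 1 of the 10 genes passed 1.5-fold, Vegfc at -0.75, against 8.59% of 16359 genes.

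Adipocyte markers differed between the libraries and were the marker list with the most members past 1.5-fold: 6 of 9 were higher in replicate 1, with a median log2 ratio of 0.70 and Lep at 1.48 ± 0.06. Fat cells also express several of the genes described here, and the part of adipocyte RNA in the ratios of Nrp1, Nrp2 and Pgf was not tested. The 15 endothelial markers had a median log2 ratio of 0.05, and 1 passed 1.5-fold, Cldn5, a tight junction gene, at 3.16 TPM in replicate 1 and 1.69 TPM in replicate 2.

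**Figure D5:**
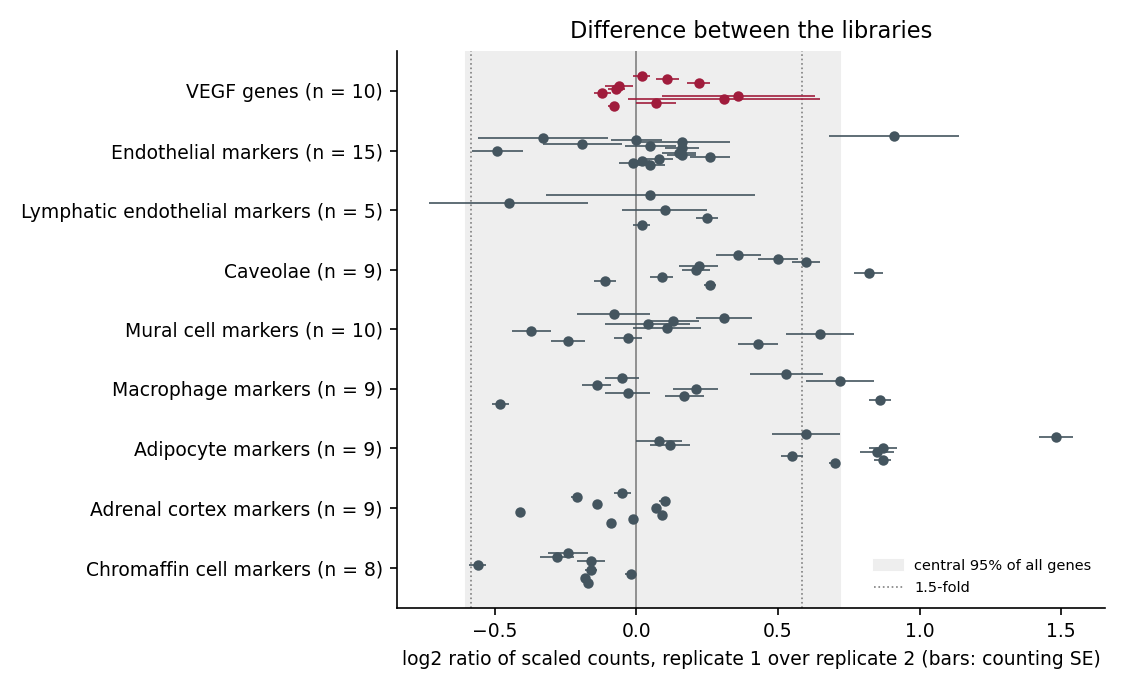
Log2 ratio of scaled counts, replicate 1 over replicate 2, for the 10 VEGF genes (red) and for marker lists of cell types and caveolae (grey), with bars for the counting SE; each point is a gene whose mean count reached 20. The 10 genes lie between -0.12 and 0.36, inside the 1.5-fold lines (dotted), while 6 of 9 adipocyte markers lie to the right of them (grey band, central 95% of all genes, -0.60 to 0.72).

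The genes around the pathway were read from 18 lists of 177 genes, all matched by symbol, of which 149 were detected. The lists were chosen with earlier results of these data known. For comparison with the counts below, 56.2% of the 22028 protein-coding genes were detected. Of the 16383 genes with enough counts for a ratio, 6.71% passed 1.5-fold between the libraries. Of 22 genes of VEGF receptor signalling, 21 were detected, with a median of 18.3 ± 0.785 TPM, and none passed 1.5-fold between the libraries. Akt1, a survival kinase, had 92.9 and 101 TPM, and among other kinase genes Map2k2 had 78.2 ± 6.21 TPM and Mapk3 had 54.5 ± 2.66 TPM. Sh2d2a, an adaptor that binds activated Kdr, had 8 and 6 counts and was the member not detected. Of 13 brakes on the pathway, 12 were detected, led by the endothelial phosphatase gene Ptprb at 22.0 ± 0.799 TPM, Ptpn1 at 21.4 ± 2.02 TPM, the ubiquitin ligase gene Cbl at 16.5 ± 0.898 TPM and Notch4 at 14.98 ± 2.93 TPM. The Notch target Hey1 fell short of the limit with 0.78 and 0.95 TPM.

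Genes that regulate Vegfa were present at levels from the detection limit to above 100 TPM. Of 13 genes of the hypoxia-inducible factors and their control, 12 were detected. Epas1, the alpha subunit known from endothelium and chromaffin cells, had 66.1 and 69.7 TPM, above Hif1a, at 23.1 and 20.1 TPM, in both libraries. Hif3a, at 1.34 TPM in replicate 1 and 2.82 TPM in replicate 2, was the member past 1.5-fold, and the oxygen sensor gene Egln3, at 1.24 and 0.9 TPM, was not detected. The highest members besides Epas1 were the ubiquitin ligase subunit genes Elob at 123 ± 6.05 TPM, Rbx1 at 49.1 ± 0.983 TPM and Eloc at 45.5 ± 2.98 TPM.

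Of 10 other hypoxia targets 8 were detected, with Pgk1 at 76.8 ± 4.82 TPM, Ldha at 44.7 ± 3.94 TPM, Bnip3 at 38.6 ± 4.55 TPM and Ndrg1 at 34.9 ± 7.47 TPM. All of these were below Vegfa in both libraries, also when Vegfa was counted over its protein-coding transcripts alone. Car9, a carbonic anhydrase gene, had 12 and 3 counts and Ankrd37 had 6 and 12 counts, and neither was detected. All 7 genes that act on Vegfa RNA were detected. They include Hnrnpl at 151 ± 3.48 TPM, the splicing factor gene Srsf1 at 98.2 ± 3.90 TPM, Zfp36l1, which promotes decay of Vegfa mRNA, at 96.7 ± 1.41 TPM, and Srpk1 at 26.2 ± 0.375 TPM. Zfp36, of the same decay family, had 10.9 TPM in replicate 1 and 6.87 TPM in replicate 2, a log2 ratio of 0.68 ± 0.09.

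The other ligands of neuropilins are class 3 semaphorins, which signal through plexins. Of 13 such genes 10 were detected. Plxnd1, the endothelial plexin, had 76.7 and 72.5 TPM, above Nrp1 and Kdr in both libraries. Plxna1 was at 23.8 ± 3.401 TPM, the adaptor gene Gipc1 at 15.1 ± 0.714 TPM and Sema3f, whose product prefers Nrp2, at 13.1 ± 0.311 TPM. Sema3a, the best known Nrp1 ligand of this class, had 11 and 9 counts, and Sema3e, a Plxnd1 ligand, had 0.3 and 0.35 TPM, so neither was detected. Sema3d had 1.17 TPM in replicate 1 and 0.55 TPM in replicate 2, past 1.5-fold and not detected.

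The angiopoietin pathway, which steadies vessels that VEGF-A makes plastic, showed receptors well above ligands. The receptor gene Tek had 20.8 and 18.1 TPM and Tie1 17.4 and 17.8 TPM. Angpt1 had 1.06 and 1 TPM, at the limit, while Angpt2, at 0.74 and 0.68 TPM, and Angpt4, at 0.33 and 0.31 TPM, were not detected.

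Caveolae and the vascular beds gave the surroundings of Plvap. Stomatal diaphragms of caveolae also contain its product, and all 9 caveolar genes were detected, led by Cavin1 at 109 ± 12.7 TPM, Dnm2 at 45.4 ± 3.44 TPM and Pacsin2 at 40.9 ± 0.0990 TPM. Cav1, the main caveolar coat protein, had 39.3 TPM in replicate 1 and 24.6 TPM in replicate 2, a log2 ratio of 0.82 ± 0.05, and Ehd2 a ratio of 0.60 ± 0.05. Both are abundant in fat cells, and the part of the adipocyte difference in them was not tested. Plvap itself did not share this difference, at 0.02 ± 0.03.

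The endothelial list was led by Egfl7 at 81.0 ± 2.31 TPM, Emcn at 48.2 ± 3.41 TPM, Eng at 44.3 ± 0.969 TPM and Pecam1 at 24.1 ± 0.0424 TPM. By the gene tables Plvap was above Emcn, Eng and Pecam1, while its range overlapped that of Egfl7, and the second quantifier put Egfl7 higher, at 87.8 and 93.0 TPM. Of 5 markers of the endothelium of the blood-brain barrier, which lacks Plvap, only Spock2 was detected, at 23.2 and 24.5 TPM, and Mfsd2a, Slco1c1, Slco1a4 and Foxq1 had between 1 and 25 counts. Spock2 is also expressed outside endothelium.

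Of 7 lymphatic markers 4 were detected: Itga9 at 24.96 ± 0.693 TPM, Prox1 at 13.96 ± 1.00 TPM, Pdpn at 3.81 ± 0.149 TPM and Ccl21a at 1.35 ± 0.0141 TPM. Ccl21a sums 2 entries of a multicopy family and is uncertain. The lymphatic hyaluronan receptor gene Lyve1 had 0.61 and 1.35 TPM, Reln 0.27 TPM in both libraries and Mmrn1 0.13 TPM in both, so none of these was detected. Flt4, at 9.81 ± 0.346 TPM, was thus higher than Lyve1, Reln and Mmrn1, and lower than Prox1, which cells other than lymphatic endothelium also express. All 10 mural cell markers were detected, with Tagln at 32.2 ± 7.73 TPM, Rgs5 at 10.8 ± 0.849 TPM, Pdgfrb at 10.1 ± 0.240 TPM and Acta2 at 7.34 ± 1.68 TPM. Acta2, at 8.53 TPM in replicate 1 and 6.16 TPM in replicate 2, was the mural gene past 1.5-fold, with a log2 ratio of 0.65 ± 0.12. All 9 macrophage markers were detected. Lyz2, at 146 and 81.4 TPM, and Cd68, at 13.1 and 7.96 TPM, were past 1.5-fold, both higher in replicate 1. Cd74, the highest of the 9, was higher in replicate 2, at 142.5 and 201.5 TPM and a log2 ratio of -0.48 ± 0.03. The median log2 ratio of the list was 0.17.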

How the data were processed

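Total RNA with ERCC spike-in RNA, 300 ng per library, was sequenced by a strand-specific protocol, per the labels. For each library the authors deposited a gene table of expected counts, TPM and FPKM, based on mm10 transcriptome alignments and GENCODE M21, per the submitters' library notes. The deposited transcript tables hold expected counts, TPM and the percent of the gene held by each transcript, per the file headers. The bounds of an interval of TPM, a signal in TPM units whose level is not given, and a posterior SD of each count were deposited too. The second quantifier is a further deposited transcript table of estimated counts and TPM, which the notes derive from the reads without an alignment. The tools were not given in the sources used here. TPM counts all features of a table, and CAST alleles were counted against mm10, an effect not analysed here.

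Symbols were matched to gene identifiers through the transcript table, and second-quantifier transcripts were added up within each gene. Expected counts were rounded before use. Ratios used TMM factors of edgeR 4.0.16 (0.997 and 1.00), a prior count of 0.5 and Poisson errors, in R 4.3.3; reads are not independent molecules, so these cover counting error only. Spike-ins, at 0.469% and 0.504% of all counts with spike-ins included, and rows without a gene name were left out of the totals. The comparison of quantifiers added 0.1 TPM as a pseudocount and took genes of at least 1 TPM in either. Coding lengths came from the GENCODE M21 annotation, since the transcript table gives none, and a Vegfa type was set by exons 5, 6 and 7. Mature lengths take off a signal peptide of 26 residues for VEGF-A and 21 for VEGF-B. DESeq2 1.42.0 gave alternative size factors. Python 3.11.15, numpy 2.4.6, pandas 2.3.3, scipy 1.17.1 and matplotlib 3.10.9 were used, and the ratio procedure was tested on simulated data.

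The members and lists were chosen with earlier results of these data known. Text names all 10 genes, their transcripts with at least 5% of the gene's TPM in either table as a mean over the libraries, and of each list the 4 highest members, those not detected and those past 1.5-fold, leaving out lists used as tissue checks only; 1 gene that the rule takes is not reported here.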

Additional observations from a re-analysis of the deposited data

How the results depend on the processing

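No paired analysis was possible because both libraries belong to 1 group. No gene passed 1.5-fold between the libraries under scaling by size factors, totals or spike-ins, the second quantifier, another prior count or another count minimum; spike-ins turned the signs of Vegfa, Kdr and Flt4. The second quantifier moved the median of the 10 genes from 31.5 to 29.1 TPM, the Vegfa share of the 4 ligands to 88.7%, Nrp1 over Nrp2 to 2.01, Plvap over Pecam1 to 2.90, ligands over receptors to 3.77 and the 164-residue type to 34.1% of Vegfa TPM. Rescaling TPM over protein-coding genes moved the median to 86.0 TPM. Counting protein-coding transcripts only, chosen after seeing the data except for the isoform shares, gave 8 genes detected (Pgf lost), against 9, a median of 26.8 TPM, a Vegfa share of 75.9%, Flt1 over Kdr of 0.696, Nrp1 over Nrp2 of 2.04, Plvap over Pecam1 of 3.56, ligands over receptors of 1.87, a median share of the leading transcript of 100%, against 75.4%, and 75.9% for the 164-residue type, against 32.0%. Members past 1.5-fold between the libraries were 1 by TPM, 1 by FPKM (Vegfc both times) and 2 by counts of coding transcripts (Vegfc at 0.66 and Pgf at 0.63), against 0.

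Leaving out each library gave medians of 31.3 to 31.8 TPM, Vegfa shares of 87.6 to 88.0%, Flt1 over Kdr of 0.772 to 0.837, Nrp1 over Nrp2 of 2.07 to 2.10, Plvap over Pecam1 of 3.43 to 3.44 and ligands over receptors of 3.22 to 3.45. It gave 9 to 10 genes detected, 151 listed genes detected either way, 0 to 1 genes past 1.5-fold between quantifiers (Vegfc, without replicate 1), leading shares of 61.8 to 88.9% and 31.2 to 32.8% for the 164-residue type. Depth limits Vegfc and Pgf, at 32 to 68 counts; length limits the Vegfa TPM. Of 108 values for single genes, 25 moved. Among these, 12 were log2 ratios, judged against a 95% range of counting error, and the others were shares, judged against the SD between the libraries.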
